A study of Homo sapiens with 36 samples.

Results

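Mitosis and the passage from G2 into it were followed here through 42 genes, of 66366 genes in the files, taken by name. They cover the kinases, cyclins, kinesins, kinetochore proteins and spindle proteins of dividing cells, together with regulators of entry and exit. A gene was to be used in a cell line where its mean was at least 1 FPKM (fragments scaled by gene length and by library depth, so that levels can be compared between genes), and all 42 passed in each of the 4 lines. The data are poly-A RNA sequencing of 4 established cell lines of human non-small cell lung cancer, each under 3 treatments of 24 h, with 3 libraries in each of 12 groups and 36 libraries in all. Per the labels, H3255 carries EGFR L858R, H1975 carries EGFR L858R and T790M, H820 carries an EGFR exon 19 deletion and T790M, and in A549 EGFR is wild type. Treatment was with 3 µM MinE07, which is an RNA whose fold lets it bind EGFR (an aptamer), with 3 µM of C36, a control aptamer used in extended form, or with the vehicle, DPBS with magnesium. All groups were treated in medium with 1% serum, DMEM for A549 and RPMI for the others, so medium and the A549 line cannot be told apart. Each genotype is represented by 1 line, so genotype and line background cannot be told apart either.

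As background, EGFR signalling through the MAPK and PI3K pathways drives G1 cells into the cycle, and the transcripts studied here accumulate in G2 and M. Cyclin B with CDK1 starts mitosis, Aurora and Polo-like kinases build the spindle, the checkpoint holds anaphase until chromosomes are attached, and the anaphase-promoting complex (APC/C) then destroys cyclin B and securin. Transcription of this set is held down in resting cells by the DREAM complex, and in G2 it is raised by B-MYB with FOXM1. In a bulk sample, fewer cells in G2 and M and less of a transcript in each such cell cannot be told apart.

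Between 13236 and 14267 genes exceeded 1 FPKM in a library. Depth, read from the steps of low values since the files give no read totals, lay between 0.590 and 1.385 times that of the median library. Replicates are given as independent biological experiments, and p-values measure the spread between their libraries. No 2 libraries were identical, and none of the 42 genes was listed at 0 in any library. In the MinE07 libraries 1 and 2 of H820, 6 of the mitochondrial genes checked were listed at 0, against 0 to 2 in every other library. These 2 libraries also had the lowest summed FPKM of the series, at 362928 and 370219, where MinE07 replicate 3 had 408809. The part of this in the H820 results was not tested. At least 6 of 7 epithelial markers reached a mean of 1 FPKM in every line and none of 3 endothelial markers did. Of 4 lung lineage markers, 3 reached it in H3255, 1 in H1975 and H820 and 0 in A549. Of 5 leukocyte markers only CD68 did, in all 4 lines, and PTPRC stayed at or under 0.052 FPKM. Of 5 fibroblast markers 0 to 2 did, with LUM at 35.4 to 45.8 FPKM in H820 alone; its part in any result was not tested.

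In both lines with L858R nearly the whole set stood lower under MinE07 than under C36. In H3255, 41 of 42 genes fell against C36 (limma, adjusted p under 0.05, which is what called means here) and 0 rose, where 20% of all 13429 genes tested fell and 16.6% rose (36.7% in either direction). For 42 of 42 every MinE07 library lay below every C36 library, where 27.1% of all genes did so. The median log2 change was -0.28, with a range from -0.60 for SPC25 to -0.11 for KIF20A, and the median over all genes was -0.01. In H1975, 34 fell and 0 rose, where 11.1% of 14183 genes fell and 8.88% rose (19.9% in either direction). The MinE07 and C36 libraries did not overlap for 39, lower in each, where 21.6% of all genes lay so. With 1 library left out the count ran from 28, without C36 replicate 1, to 35, and the calls of ANLN, BIRC5, CENPE, DLGAP5, SPC25 and TOP2A were each lost in 2 or more of these fits. The median there was -0.21, from -0.36 for SPC25 to -0.05 for NEK2, against -0.01 over all genes. In H820, 0 of 42 genes passed against C36 by limma, where 0.0145% of 13753 genes fell and 0.0218% rose (0.0364% in either direction). There 17 genes had an unadjusted p under 0.05, where 10.2% of all genes did, and the median was -0.07. MinE07 lay lower without overlap for 17 genes, where 6.78% of all genes did, and higher for 0, where 10.3% did. In A549, 0 passed by limma, where 0% of 13425 did, and 28 had an unadjusted p under 0.05, where 10.8% of all genes did. The A549 differences had the other sign for 37 of 42 genes, with a median of 0.12, against 0.002 over all genes.

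**Figure D1:**
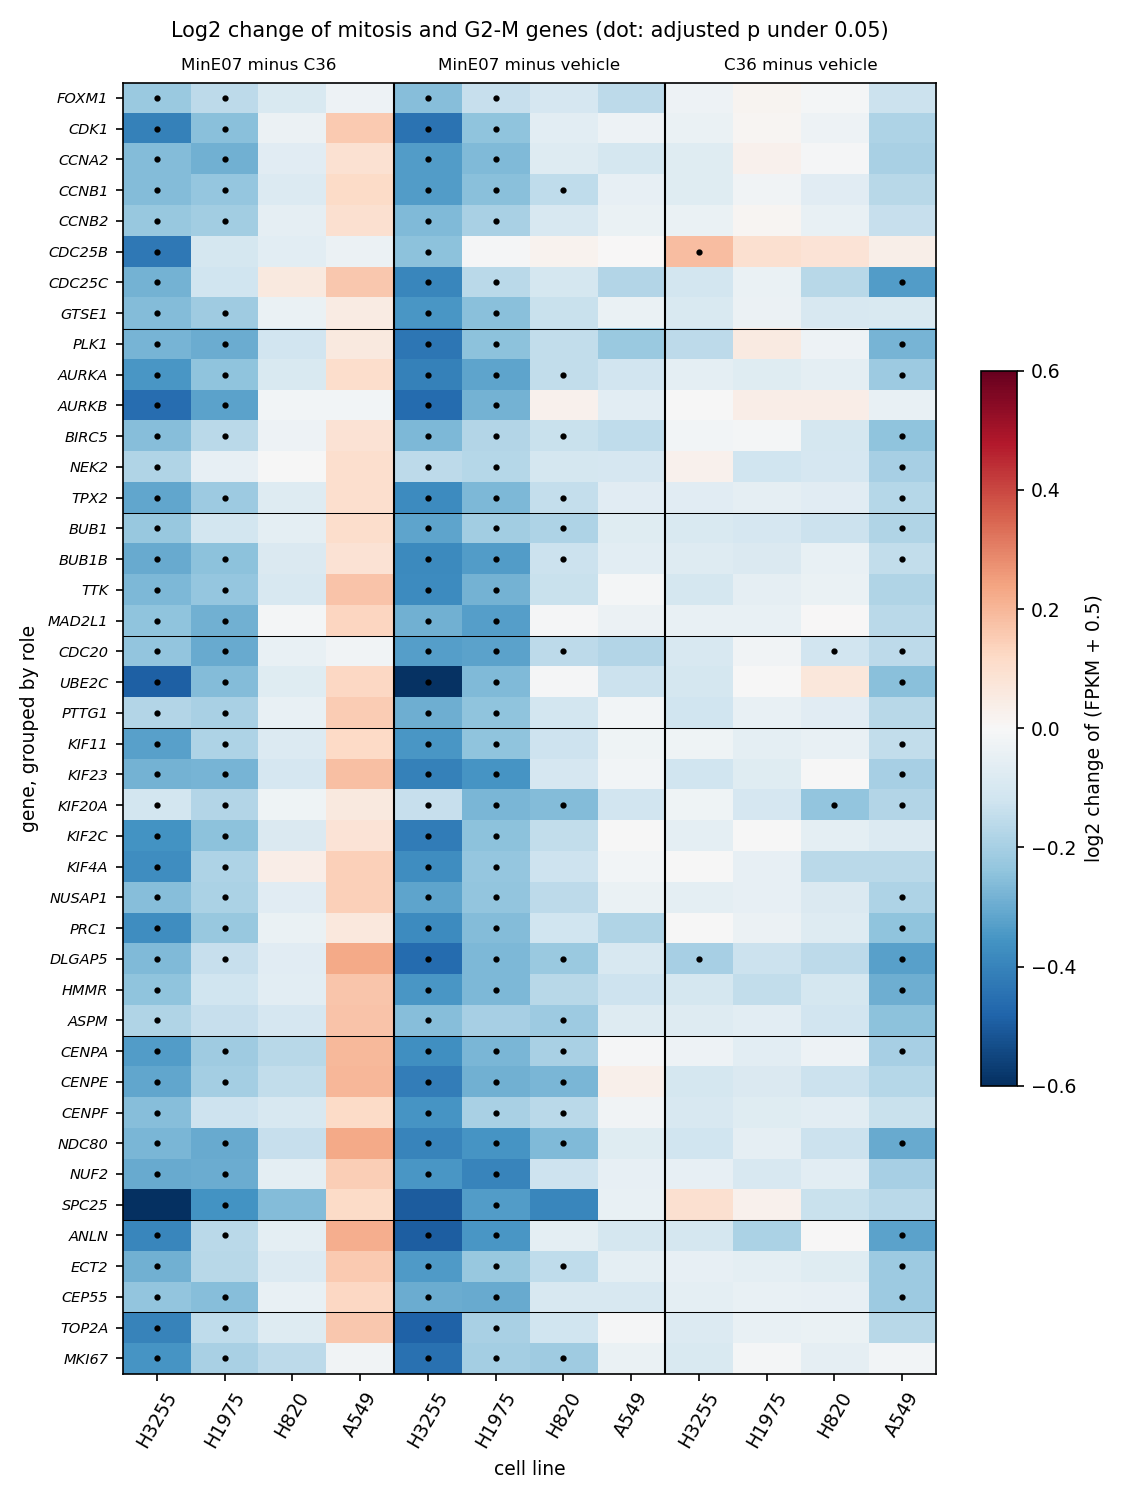
Heat map of the log2 change of (FPKM + 0.5) for the 42 genes (rows, grouped by role) in 12 comparisons (columns: 4 lines for MinE07 minus C36, MinE07 minus vehicle and C36 minus vehicle). Dots mark an adjusted p under 0.05. H3255 and H1975 are blue in nearly every row for both MinE07 comparisons, while A549 is mostly red against C36 and blue for C36 minus vehicle.

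The same values can be read by library, as means over the 42 genes, which is not separate evidence. No such mean over all genes is set beside them. The mean of the 42 genes on the log2(FPKM + 0.5) scale lay between 3.93 and 3.98 in the MinE07 libraries of H3255, between 4.24 and 4.27 with C36 and between 4.28 and 4.34 with vehicle. In H1975 it lay between 4.40 and 4.45 with MinE07, between 4.63 and 4.66 with C36 and between 4.66 and 4.72 with vehicle. All 3 MinE07 libraries were thus lowest in both lines. In H820 the MinE07 libraries ran from 4.41 to 4.46, those with C36 from 4.48 to 4.54 and those with vehicle from 4.56 to 4.60, closer together but with no overlap. In A549 the order differed: C36 was lowest at 4.39 to 4.43, MinE07 lay at 4.51 to 4.54 and vehicle at 4.58 to 4.60.

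**Figure D2:**
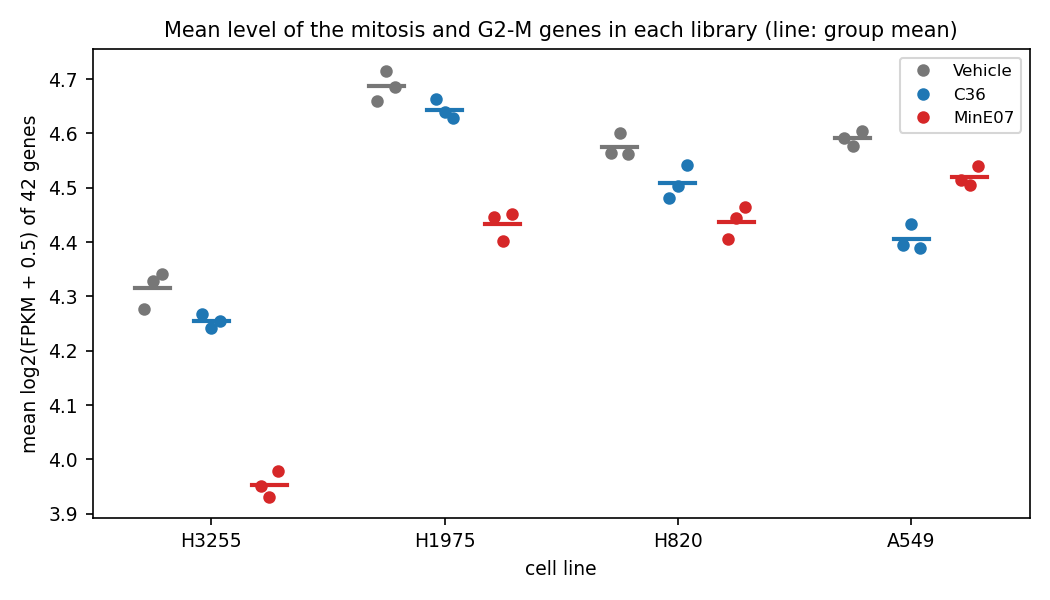
Mean log2(FPKM + 0.5) of the 42 genes in each of the 36 libraries (points), by cell line and treatment, with the group mean as a line. The MinE07 libraries sit lowest in H3255, H1975 and H820, and the C36 libraries sit lowest in A549, at 4.39 to 4.43.

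Promoter sequence was taken from RefSeq (GRCh38.p14), in windows of 300 bases that run from 250 bases before to 50 bases after a gene's start; 36 of the 42 genes have an entry, and AURKA, BIRC5, FOXM1, TPX2, TTK and UBE2C have none in the table. The genes move together, so their windows were searched on both strands for TTTGAA, the cell cycle genes homology region (CHR) to which DREAM and B-MYB complexes are known to bind, and for CCAAT, the box of the factor NF-Y. TTTGAA was present for 26 of 36 genes (72.2%), where 15.2% of all 35116 windows hold it. CCAAT was present for 30 of 36 (83.3%), where 34.6% of windows hold it, and both were present for 22 (61.1%), where 5.9% of windows hold both. These set shares of genes beside shares of windows. Counted by gene, 13.5% of the genes tested for expression had TTTGAA, 44.2% had CCAAT and 5.63% had both. Counted by window, 63% of the 46 windows of the set hold TTTGAA, 76.1% hold CCAAT and 52.2% hold both. By position, 34.8% of the 46 windows of the set had TTTGAA within the 50 bases before the start, against 2.56% of all windows. CCAAT lay 50 to 100 bases before the start in 54.3% of these windows, against 12.9% of all windows. Such matches are a description of letters, not of bound sites. TTTGAA and CCAAT were searched independently, so that a match of one may share bases with a match of the other, as in MKI67 below.

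**Figure D3:**
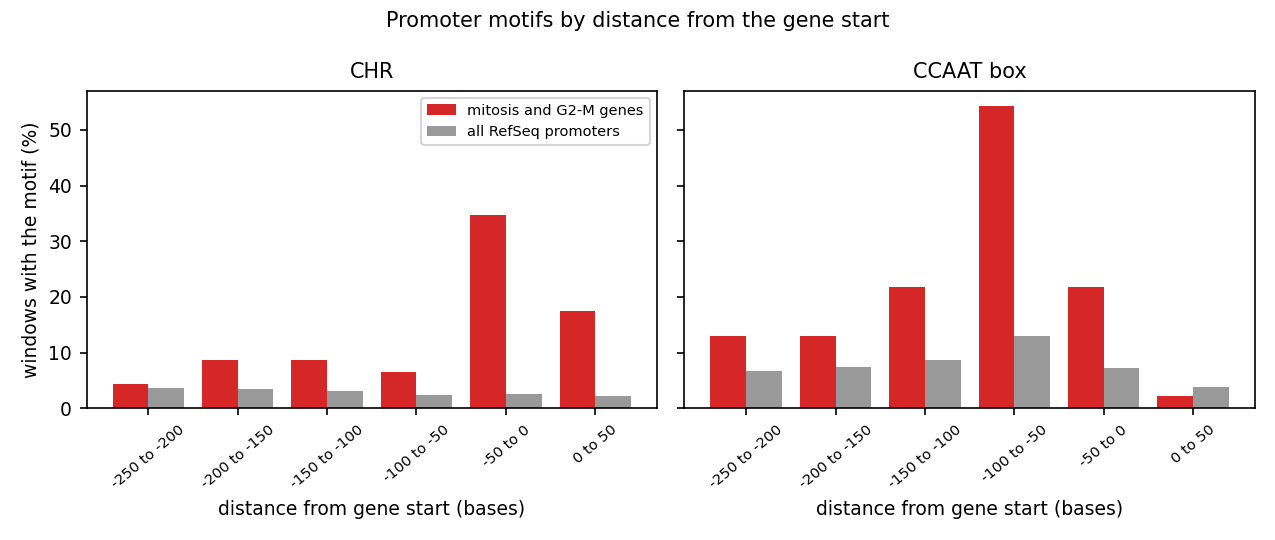
Share of promoter windows (%) that hold TTTGAA (left) or CCAAT (right) by distance from the gene start in bins of 50 bases, for the mitosis and G2-M genes (red) and all RefSeq promoters (grey). The red bars peak in the bin just before the start for TTTGAA (34.8%) and in the next bin upstream for CCAAT (54.3%).

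The 140 bases before the start are shown for 8 genes, since they show 3 of the 4 layouts found: both motifs, CCAAT without TTTGAA, and neither. The other layout, TTTGAA without CCAAT, was found in ANLN, BUB1B, NDC80 and NUF2, whose letters are not printed. Letters run 5′ to 3′ on the gene's strand, and capitals mark CCAAT and TTTGAA or their reverse complements ATTGG and TTCAAA. In KIF11 (chr10:92592990-92593129 on the plus strand), TTTGAA lies 28 and CCAAT 53 bases before the start. In KIF4A (chrX:70289964-70290103 on the plus strand) they lie at 34 and 58 bases, in CDC20 (chr1:43358841-43358980 on the plus strand) at 65 and at 55 and 100 bases. In MKI67 (chr10:128126424-128126563 on the minus strand), TTTGAA occurs at 47 and 29 bases, the latter sharing letters with a CCAAT at 24 bases, and another CCAAT lies at 98 bases. CEP55 (chr10:93496472-93496611 on the plus strand) has TTTGAA at 116 bases and CCAAT at 102 bases, and a second TTTGAA that begins 3 bases before the start and runs past it. CENPF (chr1:214603055-214603194 on the plus strand) has CCAAT 3 times in this stretch, at 94, 58 and 33 bases, and its TTTGAA lies after the start. NEK2 (chr1:211675622-211675761 on the minus strand) has CCAAT only, at 66 and 34 bases. KIF2C (chr1:44739697-44739836 on the plus strand) has neither.
KIF11: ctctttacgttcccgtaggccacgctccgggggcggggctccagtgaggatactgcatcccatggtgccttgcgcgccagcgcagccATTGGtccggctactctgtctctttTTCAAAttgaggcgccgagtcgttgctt
KIF4A: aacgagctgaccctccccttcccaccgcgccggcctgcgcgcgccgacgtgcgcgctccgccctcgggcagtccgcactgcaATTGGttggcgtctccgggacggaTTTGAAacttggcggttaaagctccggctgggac
CDC20: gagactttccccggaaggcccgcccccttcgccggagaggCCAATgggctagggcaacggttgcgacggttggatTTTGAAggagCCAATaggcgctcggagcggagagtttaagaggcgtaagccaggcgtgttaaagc
MKI67: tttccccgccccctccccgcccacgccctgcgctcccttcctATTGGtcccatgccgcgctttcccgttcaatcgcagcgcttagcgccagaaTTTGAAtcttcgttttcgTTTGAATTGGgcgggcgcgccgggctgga
CEP55: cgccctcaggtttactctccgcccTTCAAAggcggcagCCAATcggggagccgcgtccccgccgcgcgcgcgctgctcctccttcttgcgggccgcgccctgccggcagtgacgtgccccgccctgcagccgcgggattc
CENPF: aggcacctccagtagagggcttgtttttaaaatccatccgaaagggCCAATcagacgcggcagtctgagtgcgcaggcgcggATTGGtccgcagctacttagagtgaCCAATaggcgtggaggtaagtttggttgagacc
NEK2: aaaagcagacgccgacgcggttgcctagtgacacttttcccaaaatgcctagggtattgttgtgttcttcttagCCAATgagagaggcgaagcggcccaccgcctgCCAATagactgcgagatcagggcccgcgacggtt
KIF2C: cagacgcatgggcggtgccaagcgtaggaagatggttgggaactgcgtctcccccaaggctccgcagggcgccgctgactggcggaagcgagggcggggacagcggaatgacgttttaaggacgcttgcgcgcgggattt

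The changes of genes with and without TTTGAA are given as a description. Only these exact letters were searched, so genes without them were not shown to lack a CHR of other letters. In H3255 the median change with MinE07 against C36, in log2, was -0.28 for the 26 genes with it and -0.26 for the 10 without. In H1975 these medians were -0.21 and -0.20. KIF2C, a kinesin that takes microtubules apart changed by -0.36 (SE 0.05, adjusted p = 0.000234) in H3255 and by -0.24 (SE 0.03, adjusted p = 0.000943) in H1975, with no match to either motif in its window. For CCAAT the H3255 medians were -0.26 with the box (30 genes) and -0.31 without (6 genes).

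Entry into mitosis is run by CDK1 with cyclins A2, B1 and B2 (CCNA2, CCNB1, CCNB2), by the phosphatases CDC25B and CDC25C that switch CDK1 on, by the transcription factor FOXM1 and by GTSE1, a microtubule-binding protein of G2. All 8 fell in H3255 and 6 of 8 in H1975, where CDC25B and CDC25C did not pass. CDK1 in H3255 stood at 28.4, 28.8 and 31.1 FPKM with MinE07, 40.4, 38.1 and 38.9 with C36 and 36.1, 40.9 and 43.9 with vehicle. In H1975 it stood at 32.4, 28.1 and 31.2 FPKM with MinE07, 35.6, 36.98 and 36.6 with C36 and 33.97, 36.8 and 37.5 with vehicle. The MinE07 libraries lay under every library of the other groups in both lines, and CDK1 fell by 0.41 (SE 0.06, adjusted p = 0.000926) on the log2 scale in H3255 and by 0.25 (SE 0.05, adjusted p = 0.0101) in H1975. H820 had 25.9, 25.7 and 27.8 FPKM with MinE07, 26.6, 26.3 and 28.4 with C36 and 27.7, 28.5 and 26.6 with vehicle. A549 had 54.5, 54.6 and 60.99 FPKM with MinE07, 49.5, 52.6 and 50.3 with C36 and 62.7, 53.4 and 57.6 with vehicle. The groups overlapped in H820, and in A549 the C36 libraries lay under all others.

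Cyclin B1 fell in both lines with L858R as well. H3255 had 23.2, 23.1 and 24.8 FPKM with MinE07, 29.3, 27.8 and 28.4 with C36 and 28.4, 31.1 and 30.6 with vehicle. H1975 had 70.5, 67.5 and 68.8 FPKM with MinE07, 82.6, 80.8 and 79.5 with C36 and 81.6, 82.6 and 82.4 with vehicle. The MinE07 libraries were lowest without overlap in both, at log2 changes against C36 of -0.26 (SE 0.04, adjusted p = 0.000985) and -0.23 (SE 0.03, adjusted p = 0.000584). H820 had 57.8, 55.1 and 58.95 FPKM with MinE07, 59.03, 61.7 and 61.2 with C36 and 64.04, 65.3 and 61.6 with vehicle. A549 had 63.9, 63.3 and 67.05 FPKM with MinE07, 59.8, 60.7 and 58.5 with C36 and 70.8, 64.4 and 65.8 with vehicle. MinE07 lay under both other groups in H820, and in A549 C36 lay under both others. The H820 gene fell against vehicle, by 0.15 (SE 0.03, adjusted p = 0.0428) on the log2 scale, while its change against C36 was -0.08 (SE 0.03, adjusted p = 0.451).

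FOXM1, the factor that drives many of these genes, was measured too. H3255 had 43.5, 44.02 and 46.4 FPKM with MinE07, 51.98, 52.8 and 51.9 with C36 and 53.2, 54.7 and 52.5 with vehicle. H1975 had 36.1, 38.5 and 36.5 FPKM with MinE07, 42.3, 41.4 and 40.2 with C36 and 40.6, 40.1 and 41.8 with vehicle. Both lines had all MinE07 libraries lowest, with changes of -0.22 (SE 0.03, adjusted p = 0.000444) and -0.15 (SE 0.03, adjusted p = 0.0107) against C36. H820 had 26.3, 26.1 and 24.99 FPKM with MinE07, 27.03, 27.5 and 27.99 with C36 and 26.4, 26.97 and 29.9 with vehicle. A549 had 30.2, 28.1 and 28.02 FPKM with MinE07, 29.9, 29.2 and 28.8 with C36 and 31.5, 31.97 and 32.8 with vehicle. MinE07 lay under the other 6 libraries in H820 (-0.09, SE 0.04, adjusted p = 0.525 against C36), without passing. In A549 MinE07 and C36 overlapped (-0.03, SE 0.04, adjusted p = 0.812), and the vehicle libraries lay above both.

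CDC25B was the 1 gene of the set that rose with C36 in H3255, a call lost without any of the 3 C36 libraries, any of the 3 vehicle libraries or MinE07 replicate 2. It stood there at 58.1, 57.2 and 58.7 FPKM with MinE07, 79.8, 77.3 and 77.6 with C36 and 68.8, 68.1 and 69.6 with vehicle, with the 3 groups apart from each other. The change of C36 against vehicle was 0.18 (SE 0.03, adjusted p = 0.0381). That of MinE07 was -0.24 (SE 0.03, adjusted p = 8.24e-05) against vehicle and -0.43 (SE 0.03, adjusted p = 1.98e-06) against C36. H1975 had 47.6, 48.2 and 45.5 FPKM with MinE07, 53.2, 48.3 and 50.7 with C36 and 47.5, 47.3 and 47.2 with vehicle. MinE07 overlapped vehicle there and lay under C36, at a change against C36 of -0.11 (SE 0.04, adjusted p = 0.0756). The fall in H3255 was larger than that in H1975 by 0.32 (SE 0.05, adjusted p = 2.17e-05) on the log2 scale. CDC25B in A549 had 66.6, 65.8 and 63.8 FPKM with MinE07, 66.1, 69.7 and 65.4 with C36 and 65.2, 64.3 and 66.4 with vehicle, with overlapping groups. CDC25C, the other phosphatase, was at 2.89, 2.81 and 3.53 FPKM with MinE07, 3.63, 3.95 and 3.93 with C36 and 4.196, 4.28 and 4.06 with vehicle in H3255, 3 groups that did not overlap. H820 had 7.61, 7.99 and 7.74 FPKM with MinE07, 6.91, 7.64 and 7.84 with C36 and 8.80000, 8.603 and 7.89 with vehicle. MinE07 and C36 overlapped there, at the highest change of the set in that line, 0.06 (SE 0.05, adjusted p = 0.738).

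The kinases that build the spindle are Polo-like kinase 1 (PLK1), Aurora A (AURKA), which TPX2 activates at the spindle, Aurora B (AURKB), which works in a complex with survivin (BIRC5), and the centrosome kinase NEK2. All 6 genes fell in H3255, and 5 of 6 in H1975, with NEK2 the exception. PLK1 stood at 11.4, 12.2 and 12.2 FPKM with MinE07, 14.8, 14.5 and 14.4 with C36 and 15.8, 17.3 and 15.8 with vehicle in H3255. In H1975 it stood at 41.8, 42.9 and 42.1 FPKM with MinE07, 53.9, 51.5 and 50.9 with C36 and 50.97, 49.1 and 50.3 with vehicle. MinE07 gave the lowest libraries in both lines, with changes of -0.28 (SE 0.04, adjusted p = 0.000839) and -0.30 (SE 0.03, adjusted p = 0.000263) against C36. H820 had 24.2, 24.8 and 26.3 FPKM with MinE07, 27.1, 28.3 and 26.3 with C36 and 27.2, 27.97 and 28.3 with vehicle. A549 had 43.03, 41.96 and 43.4 FPKM with MinE07, 41.2, 42.7 and 39.5 with C36 and 50.6, 49.5 and 49.8 with vehicle. In A549 both aptamers lay under vehicle in every library, and PLK1 fell with C36 by 0.28 (SE 0.04, adjusted p = 0.00617) on the log2 scale.

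AURKA in H3255 stood at 26.6, 24.6 and 25.8 FPKM with MinE07, 34.03, 31.7 and 32.6 with C36 and 32.4, 34.8 and 35.2 with vehicle. H1975 had 33.4, 33.2 and 34.6 FPKM with MinE07, 40.4, 40.6 and 39.1 with C36 and 41.9, 41.9 and 42.6 with vehicle. Its changes against C36 were -0.35 (SE 0.04, adjusted p = 0.000159) and -0.24 (SE 0.03, adjusted p = 0.000511), with MinE07 under both other groups in each. H820 had 40.2, 42.95 and 43.1 FPKM with MinE07, 44.3, 45.6 and 44.7 with C36 and 46.6, 47.2 and 46.4 with vehicle. A549 had 54.3, 53.5 and 55.3 FPKM with MinE07, 50.8, 50.8 and 49.8 with C36 and 62.5, 55.7 and 58.6 with vehicle. The H820 gene fell against vehicle (-0.15, SE 0.03, adjusted p = 0.0301), and the A549 gene fell with C36 (-0.22, SE 0.04, adjusted p = 0.0217).

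AURKB had the largest change in H1975 after SPC25. H3255 had 27.3, 29.1 and 30.0000 FPKM with MinE07, 42.3, 38.9 and 38.2 with C36 and 39.9, 39.99 and 39.5 with vehicle. H1975 had 35.8, 35.8 and 38.2 FPKM with MinE07, 45.4, 45.4 and 46.6 with C36 and 44.5, 46.5 and 42.8 with vehicle. The log2 changes against C36 were -0.46 (SE 0.04, adjusted p = 3.46e-05) and -0.32 (SE 0.04, adjusted p = 0.000526), and MinE07 libraries lay apart from the other 6 in each line. H820 had 24.8, 26.5 and 28.8 FPKM with MinE07, 26.2, 27.8 and 26.9 with C36 and 25.8, 27.8 and 25.03 with vehicle. A549 had 29.8, 29.3 and 31.0000 FPKM with MinE07, 29.4, 31.1 and 30.6 with C36 and 31.9, 30.8 and 31.4 with vehicle. All 3 groups overlapped in both of these lines, and the change against C36 was -0.02 in H820 and -0.02 in A549, neither called. TPX2 changed by -0.31 in H3255 and -0.22 in H1975, and BIRC5 by -0.26 and -0.16, all called. NEK2 stood at 12.7, 12.8 and 12.9 FPKM with MinE07, 14.8, 14.6 and 14.4 with C36 and 14.0000, 14.04 and 15.0000 with vehicle in H3255, where it fell (-0.18, SE 0.03, adjusted p = 0.00204). H1975 had 16.8, 16.7 and 17.9 FPKM with MinE07, 18.4, 17.6 and 17.2 with C36 and 19.2, 19.3 and 19.5 with vehicle. MinE07 and C36 overlapped there, at -0.05 (SE 0.04, adjusted p = 0.387), and vehicle lay above both.

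The spindle checkpoint genes are BUB1, BUB1B, TTK and MAD2L1, which delay anaphase while kinetochores are unattached. All 4 fell in H3255 and 3 in H1975. BUB1 stood at 15.97, 15.4 and 16.2 FPKM with MinE07, 18.3, 18.9 and 18.6 with C36 and 18.9, 20.04 and 20.6 with vehicle in H3255. H1975 had 15.6, 14.3 and 15.3 FPKM with MinE07, 16.6, 16.5 and 15.7 with C36 and 16.7, 17.9 and 17.8 with vehicle. BUB1 fell in H3255 (-0.23, SE 0.04, adjusted p = 0.00104). In H1975 the MinE07 libraries lay just under those with C36, at a change of -0.11 (SE 0.04, adjusted p = 0.102) that did not pass, while against vehicle BUB1 fell (-0.21, SE 0.04, adjusted p = 0.00712). H820 had 9.596, 10.2 and 9.87 FPKM with MinE07, 9.67, 10.6 and 10.6 with C36 and 11.1, 11.4 and 11.4 with vehicle. A549 had 19.5, 19.2 and 19.97 FPKM with MinE07, 17.8, 18.8 and 17.8 with C36 and 21.3, 19.99 and 20.5 with vehicle. The H820 gene fell against vehicle (-0.18, SE 0.04, adjusted p = 0.0408), and the A549 gene fell with C36 (-0.18, SE 0.04, adjusted p = 0.0274). BUB1B changed by -0.30 and -0.25 in H3255 and H1975, TTK by -0.27 and -0.23, and MAD2L1 by -0.24 and -0.29, all called.

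Of the genes that work with the APC/C, CDC20 activates it, UBE2C is its ubiquitin-conjugating enzyme and securin (PTTG1) is a substrate. UBE2C had the largest called fall in H3255, where it stood at 45.4, 49.9 and 50.95 FPKM with MinE07, 66.7, 69.6 and 69.2 with C36 and 74.2, 73.9 and 72.8 with vehicle. In H1975, its highest line, it stood at 125, 127 and 120.2 FPKM with MinE07, 150.4, 151 and 145 with C36 and 151, 144 and 152 with vehicle. It fell by 0.49 (SE 0.04, adjusted p = 1.6e-05) and by 0.26 (SE 0.03, adjusted p = 0.00091) on the log2 scale, and the fall was larger in H3255 by 0.23 (SE 0.06, adjusted p = 0.00866). H820 had 115, 122 and 126 FPKM with MinE07, 125, 129.5 and 128 with C36 and 124, 122 and 118 with vehicle. A549 had 80.3, 87.5 and 84.5 FPKM with MinE07, 73.7, 80.4 and 77.4 with C36 and 96.9, 89.8 and 89.1 with vehicle. In H820 MinE07 overlapped both other groups, and in A549 the gene fell with C36 (-0.25, SE 0.05, adjusted p = 0.0229). CDC20 changed by -0.24 and -0.30 in H3255 and H1975, both called. PTTG1, whose reads may be shared with near-identical relatives, so that its value is uncertain, stood at 25.5, 24.8 and 26.1 FPKM with MinE07, 29.3, 28.4 and 28.6 with C36 and 30.8, 33.1 and 30.1 with vehicle in H3255. The 3 groups lay apart, and the change was -0.17 (SE 0.04, adjusted p = 0.00556).

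**Figure D4:**
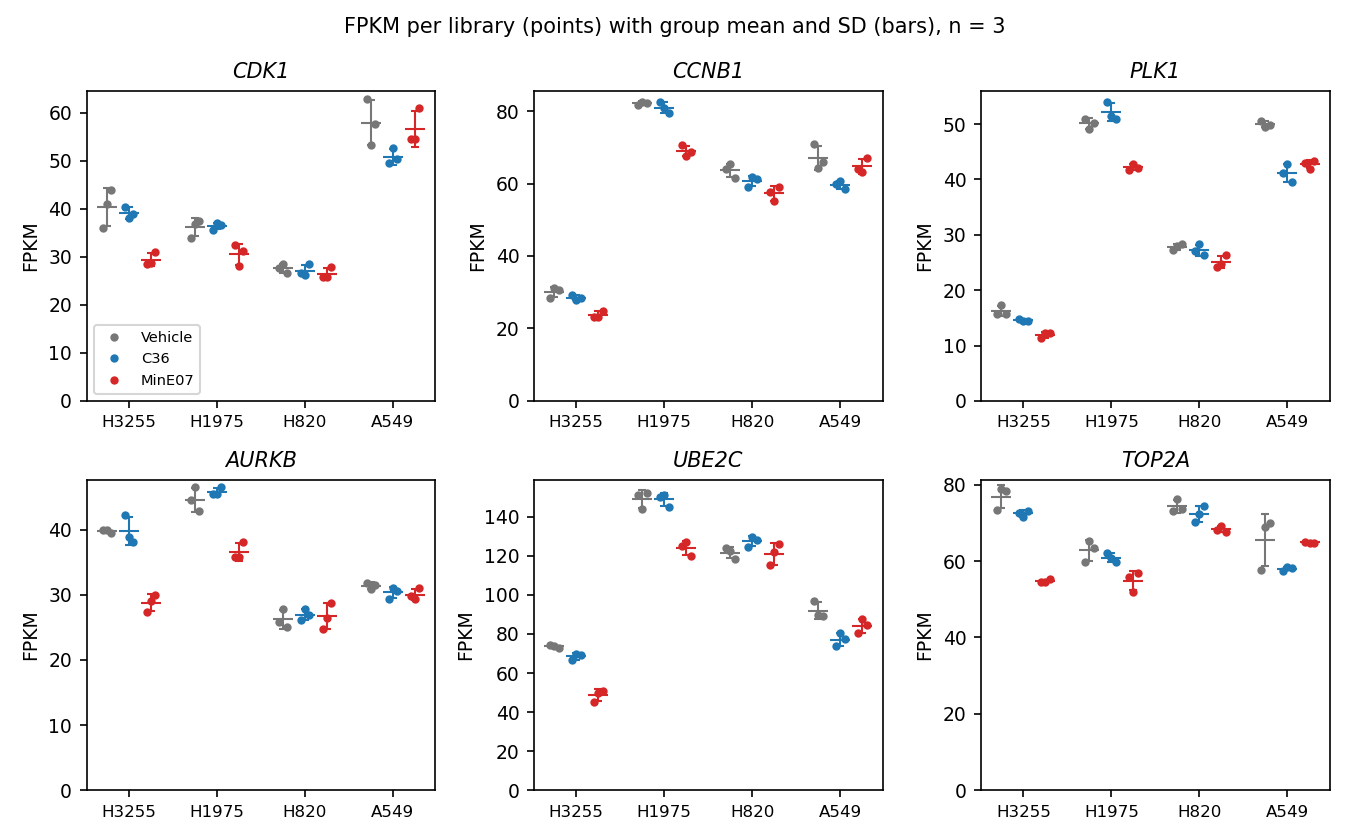
FPKM of CDK1, CCNB1, PLK1, AURKB, UBE2C and TOP2A in every library (points) by line and treatment, with group mean and SD as bars (n = 3) and axes from 0. The MinE07 points of H3255 and H1975 lie under the C36 and vehicle points in each panel, as for UBE2C in H3255 at 45.4, 49.9 and 50.95 FPKM.

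Kinesins and spindle proteins make up 10 of the genes: KIF11, which slides microtubules apart, KIF23 and KIF20A of the central spindle, KIF2C, KIF4A, the bundling proteins PRC1 and NUSAP1, and DLGAP5, HMMR and ASPM of spindle poles and assembly. All 10 fell in H3255 and 8 in H1975, where HMMR and ASPM did not pass. KIF20A had the smallest change in H3255, where it stood at 8.88, 9.24 and 9.09 FPKM with MinE07, 9.86, 10.1 and 9.57 with C36 and 9.71, 10.2 and 10.2 with vehicle. H1975 had 18.6, 18.4 and 18.9 FPKM with MinE07, 21.6, 20.98 and 20.9 with C36 and 21.9, 23.1 and 23.1 with vehicle. MinE07 lay under C36 and vehicle in both, at -0.11 (SE 0.04, adjusted p = 0.0325) and -0.18 (SE 0.03, adjusted p = 0.00365), and the H3255 call was lost without C36 replicate 1 or 2 or MinE07 replicate 1 or 3. H820 had 20.6, 21.4 and 22.1 FPKM with MinE07, 21.2, 21.3 and 22.8 with C36 and 25.4, 25.7 and 26.04 with vehicle. A549 had 12.6, 12.5 and 13.2 FPKM with MinE07, 12.04, 12.7 and 11.97 with C36 and 13.8, 13.6 and 14.2 with vehicle. In H820 both aptamers lay below vehicle, and the gene fell with C36 (-0.24, SE 0.04, adjusted p = 0.0091) and with MinE07 (-0.26, SE 0.04, adjusted p = 0.00435).

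KIF4A, a chromosome-bound kinesin, stood at 5.57, 5.18 and 5.19 FPKM with MinE07, 7.08, 7.04 and 6.95 with C36 and 7.06, 6.79 and 7.25 with vehicle in H3255, where it fell (-0.37, SE 0.04, adjusted p = 6.8e-05). H820 had 10.4, 10.98 and 10.8 FPKM with MinE07, 10.1, 10.4 and 10.9 with C36 and 11.8, 12.2 and 11.3 with vehicle. MinE07 and C36 overlapped there, at 0.04 (SE 0.04, adjusted p = 0.774), the second highest change of the set in that line. DLGAP5 in A549 stood at 14.3, 14.3 and 13.9 FPKM with MinE07, 11.8, 12.3 and 11.96 with C36 and 15.5, 14.6 and 15.5 with vehicle. Its A549 MinE07 libraries lay between C36 and vehicle with no overlap, at changes of 0.23 (SE 0.04, adjusted p = 0.167) against C36 and, for C36 against vehicle, -0.33 (SE 0.04, adjusted p = 0.0047). H3255 had 18.8, 17.9 and 18.01 FPKM with MinE07, 22.02, 21.9 and 22.1 with C36 and 24.4, 26.1 and 25.6 with vehicle. DLGAP5 also fell there with C36 against vehicle (-0.20, SE 0.03, adjusted p = 0.0485), a call lost in 8 of the 9 fits that left out 1 library, all but that without MinE07 replicate 1. Against C36 the H3255 changes were -0.29 for KIF23, -0.33 for KIF11 and -0.36 for KIF2C. PRC1 changed by -0.37 and NUSAP1 by -0.26 in H3255, with HMMR at -0.24 and ASPM at -0.18.

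The kinetochore is the plate on which microtubules pull. CENPA is the histone variant that marks centromeres, CENPE a kinetochore motor, CENPF a protein of the outer plate, and NDC80, NUF2 and SPC25 form the microtubule-binding complex. Of these 6, 5 fell in H3255 and 5 in H1975; SPC25 in H3255 and CENPF in H1975 did not pass. SPC25 had the lowest change of the set in H3255, H1975 and H820. SPC25 stood at 3.77, 3.06 and 4.75 FPKM with MinE07, 6.398, 5.90000 and 5.76 with C36 and 6.68, 3.98 and 6.54 with vehicle in H3255. H1975 had 2.60000, 3.36 and 3.61 FPKM with MinE07, 4.28, 3.98 and 4.34 with C36 and 3.99, 3.94 and 4.43 with vehicle. The changes were -0.60 (SE 0.21, adjusted p = 0.071) and -0.36 (SE 0.09, adjusted p = 0.0251), and the H1975 call was lost without C36 replicate 1 or 3. In H3255 vehicle replicate 2 lay within the MinE07 range, and without it SPC25 was called. The files hold a further entry of SPC25, so that reads may be split between copies and its value is uncertain. H820 had 3.496, 3.87 and 4.56 FPKM with MinE07, 5.04, 4.46 and 5.01 with C36 and 5.28, 6.41 and 4.52 with vehicle. All 3 groups overlapped, at -0.26 (SE 0.12, adjusted p = 0.539) against C36.

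CENPF was at 12.4, 11.3 and 11.3 FPKM with MinE07, 15.1, 13.9 and 13.1 with C36 and 14.4, 16.3 and 14.4 with vehicle in H3255. H1975 had 21.8, 22.6 and 23.1 FPKM with MinE07, 24.7, 24.9 and 23.98 with C36 and 25.2, 27.6 and 24.7 with vehicle. MinE07 lay lowest in both, and CENPF fell in H3255 (-0.26, SE 0.06, adjusted p = 0.00937) and the H1975 change was -0.12 (SE 0.04, adjusted p = 0.076). H820 had 26.8, 25.8 and 25.1 FPKM with MinE07, 27.2, 27.2 and 28.9 with C36 and 28.7, 28.9 and 29.6 with vehicle. A549 had 17.6, 17.7 and 18.4 FPKM with MinE07, 16.3, 16.8 and 16.3 with C36 and 15.01, 20.1 and 19.8 with vehicle. Replicate 1 of the A549 vehicle libraries was lowest of all 9 in that line, at 15.0 FPKM. CENPA in H820 stood at 13.8, 14.5 and 13.9 FPKM with MinE07, 14.9, 16.1 and 16.7 with C36 and 16.5, 15.9 and 16.2 with vehicle. MinE07 lay under the other 6 libraries, at -0.17 (SE 0.04, adjusted p = 0.294) against C36, the lowest change there after SPC25, and CENPA fell against vehicle (-0.20, SE 0.04, adjusted p = 0.0371). NDC80 in A549 stood at 3.45, 3.64 and 3.92 FPKM with MinE07, 2.97, 3.05 and 3.14 with C36 and 4.08, 3.64 and 3.95 with vehicle. C36 lay under both other groups, which overlapped, and NDC80 fell with C36 against vehicle (-0.30, SE 0.06, adjusted p = 0.0184). Its change with MinE07 against C36 was the highest of the set there, 0.23 (SE 0.06, adjusted p = 0.302), and was not called. NUF2 changed by -0.30 in H3255 and -0.30 in H1975, NDC80 by -0.27 and -0.30, and CENPE by -0.31 and -0.20, all called.

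Cytokinesis genes are ANLN, the scaffold of the contractile ring, ECT2, which activates RhoA there, and CEP55, which organises the final separation of daughter cells. All 3 fell in H3255 (-0.39, -0.29 and -0.24), and ANLN and CEP55 fell in H1975 (-0.16 and -0.26). ANLN fell more in H3255 by 0.23 (SE 0.05, adjusted p = 0.0034) on the log2 scale, and its H1975 call (adjusted p = 0.0483) was lost without any C36 library, MinE07 replicate 2 or 3, or vehicle replicate 3. All 3 also fell with C36 in A549, by 0.32, 0.22 and 0.22 on the log2 scale. Of the 9 fits that left out 1 library there, the ECT2 call was lost in 5 and that of CEP55 in 2.

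Of the chromosome genes, TOP2A is the topoisomerase that untangles sister chromatids and MKI67 the coat of mitotic chromosomes used as a marker of dividing cells. TOP2A stood at 54.6, 54.5 and 55.2 FPKM with MinE07, 72.7, 71.5 and 73.2 with C36 and 73.4, 78.98 and 78.2 with vehicle in H3255. H1975 had 55.7, 52.0000 and 56.8 FPKM with MinE07, 62.1, 60.9 and 59.8 with C36 and 59.8, 65.3 and 63.5 with vehicle. The changes were -0.40 (SE 0.03, adjusted p = 1.03e-05) and -0.15 (SE 0.04, adjusted p = 0.03), with MinE07 under both other groups. The H1975 call was lost without any C36 library or without MinE07 replicate 1 or 2. H820 had 68.2, 69.3 and 67.7 FPKM with MinE07, 70.2, 72.2 and 74.3 with C36 and 73.1, 76.3 and 73.5 with vehicle. A549 had 64.97, 64.8 and 64.8 FPKM with MinE07, 57.5, 58.4 and 58.1 with C36 and 57.6, 68.9 and 69.95 with vehicle. The A549 vehicle libraries ranged from 57.6 to 70.0 FPKM with replicate 1 lowest, so C36 overlapped them, and MinE07 lay above C36 (0.16, SE 0.06, adjusted p = 0.432) without passing.

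MKI67 stood at 26.5, 25.3 and 24.8 FPKM with MinE07, 34.2, 32.5 and 31.7 with C36 and 33.8, 37.2 and 34.1 with vehicle in H3255. H1975 had 33.6, 35.2 and 35.1 FPKM with MinE07, 39.1, 40.4 and 39.5 with C36 and 38.1, 42.7 and 39.4 with vehicle. Both were lowest with MinE07, at -0.36 (SE 0.05, adjusted p = 0.000191) and -0.19 (SE 0.04, adjusted p = 0.0104). H820 had 22.1, 21.1 and 20.9 FPKM with MinE07, 23.5, 24.03 and 24.2 with C36 and 23.3, 24.6 and 26.7 with vehicle. A549 had 36.7, 31.9 and 34.2 FPKM with MinE07, 35.4, 34.2 and 34.6 with C36 and 25.7, 41.4 and 40.7 with vehicle. The H820 MinE07 libraries lay under the other 6, and the gene fell against vehicle (-0.21, SE 0.05, adjusted p = 0.0384). A549 vehicle replicate 1 was at 25.7 FPKM and the other 2 at 41.4 and 40.7 FPKM, and the SE of its changes there was 0.17. MKI67 is the 1 gene of the set whose change with MinE07 against C36 in H3255 was not shown to differ from that in A549, at a difference of -0.33 (SE 0.14, adjusted p = 0.0824).

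Vehicle served as the second reference. Against it, 41 of 42 genes fell with MinE07 in H3255, all but SPC25, where 17.2% of all genes fell (38.6% in either direction), with a median of -0.36. In H1975, 40 fell, all but ASPM and CDC25B, where 12.9% did (23.7% in either direction), with a median of -0.26. The groups lay apart for 41 genes in H3255, where 21.9% of all genes lay lower, and for 40 in H1975, where 20.5% did. The comparisons with C36 and with vehicle share the MinE07 libraries. For C36 against vehicle in H3255, DLGAP5 fell and CDC25B rose, where 0.141% and 0.164% of genes did (0.305% in either direction). C36 lay lower without overlap for 12 genes, where 7.32% of all genes did, and higher for 1, where 17.1% did. In the same comparison 13 genes had an unadjusted p under 0.05, where 15.9% did. In H1975, 0 passed by limma, where 0.19% of genes fell and 0.0423% rose (0.233% in either direction), and 8 had an unadjusted p under 0.05, where 14.3% did. The count of 0 that passed after adjustment became 1 without vehicle replicate 1. The H1975 changes with C36 were negative for 34 of 42 genes, and C36 lay lower without overlap for 13, where 10.1% of all genes did, and higher for 1, where 10.4% did. The H3255 changes with C36 were negative for 39 of 42 genes, with a median of -0.07. The median over all genes was 0.005 in H1975 and 0.02 in H3255.

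In H820 a part of the set was lower with MinE07 than with vehicle. Here 16 genes fell (ASPM, AURKA, BIRC5, BUB1, BUB1B, CCNB1, CDC20, CENPA, CENPE, CENPF, DLGAP5, ECT2, KIF20A, MKI67, NDC80 and TPX2), where 1.03% of genes fell and 1.99% rose (3.02% in either direction). The median over the set was -0.13. The 2 groups did not overlap for 32 genes, where 9.18% of all genes lay lower without overlap. With C36 against vehicle, CDC20 and KIF20A fell, where 1.29% did (2.85% in either direction). That count of 2 was 0 without C36 replicate 1 and 1 without C36 replicate 2, MinE07 replicate 2 or 3 or any vehicle library. The H820 changes with C36 were negative for 37 of 42 genes, where the median over all genes was 0.005. C36 lay lower without overlap for 18, where 10.9% of all genes did, and higher for 2, where 13.6% did. The count of 16 was 3 without vehicle replicate 2, 4 without MinE07 replicate 2 and 7 to 10 without any other of the 9. Of the 16, CENPE and KIF20A were called in all 9 fits that left out 1 library. The calls of ASPM and CDC20 were each lost in 1 of the 9, and those of DLGAP5, ECT2 and NDC80 in 2. AURKA lost its call in 6, CENPA, CENPF and MKI67 in 7, BUB1 and CCNB1 in 8 and BIRC5, BUB1B and TPX2 in 9.

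In A549 a large share of the set fell with C36. Against vehicle, 22 of 42 genes fell with C36, where 2.38% of genes did (6% in either direction), with a median of -0.18. The groups did not overlap for 32 genes, C36 lower, where 12.4% of all genes did so. The 22 were 5 of 6 kinase genes (not AURKB), 7 of 10 kinesin and spindle genes, all 3 cytokinesis genes, 2 of 4 checkpoint genes, CDC20, UBE2C, CENPA, NDC80 and CDC25C. With MinE07, 0 genes passed against vehicle by limma, where 0.0968% fell and 0.119% rose (0.216% in either direction), and 14 had an unadjusted p under 0.05, where 13.9% did. The median was -0.06, against 0.02 over all genes, and 40 of 42 changes were negative. MinE07 lay lower than vehicle without overlap for 16 genes, where 7.05% of all genes did. Without vehicle replicate 1, 2 genes passed. The MinE07 libraries lay above the C36 libraries without overlap for 30 genes, where 12.5% of all genes did. The comparison of MinE07 with C36 and that of C36 with vehicle share the C36 libraries of this line. The count of 22 was 7, 8 and 4 without C36 replicates 1, 2 and 3, 14 without MinE07 replicate 1 and 8 without vehicle replicate 3. It was 25 without vehicle replicate 1. Among the vehicle libraries, that replicate was lowest for ASPM, CENPE, CENPF, KIF4A, MKI67 and TOP2A, among others. It was highest for genes such as AURKA, CDK1, ECT2, NUSAP1, PTTG1 and UBE2C. The part of this library in the 22 calls is known only from that fit. Of the 22, ANLN, CDC25C, DLGAP5 and PLK1 were called in all 9 fits that left out 1 library. BIRC5, HMMR and PRC1 lost their calls in 1, CEP55 in 2, and AURKA, KIF23, NDC80, NEK2 and UBE2C in 4. Calls were lost in 5 for BUB1 and ECT2, in 6 for CENPA, KIF20A and TPX2, in 7 for NUSAP1, in 8 for KIF11 and in 9 for BUB1B and CDC20. In the fit of all 36 libraries, where the lines share 1 estimate of the spread, the A549 counts were larger. There C36 was lower than vehicle for 35 genes, where 5.96% of 14572 genes were, MinE07 was lower than vehicle for 6, where 1.46% were, and MinE07 was higher than C36 for 9, where 0.988% were.

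The difference between lines was tested in 1 fit of all 36 libraries. The change between MinE07 and C36 was lower in H3255 than in A549 for 41 of 42 genes, where 14% of 14572 genes were (25.2% in either direction), and the median difference was -0.41. Against A549 the H1975 change was lower for 36 genes, where 6.88% were (12.6% in either direction), and the H820 change for 6 (ANLN, CENPA, CENPE, DLGAP5, KIF23 and NDC80), where 0.213% were (0.323% in either direction). The medians of these differences were -0.33 and -0.18. The mean of H3255 and H1975 was lower than the mean of H820 and A549 for 41 genes, where 14.3% were (24.5% in either direction), with a median of -0.28. These terms subtract the A549 change, in which the C36 libraries lie low. With vehicle in place of C36 as the reference, the counts were 35 for H3255 and 24 for H1975 against A549, 1 for H820 and 34 for the mean of both lines. The shares of all genes with that reference are not given here. A shift of these counts thus cannot be told apart from a shift of the whole fit. Of the 6 genes of H820 only CENPE was called with vehicle as the reference (-0.31, adjusted p = 0.0212), and ANLN had the other sign (0.05, adjusted p = 0.751). The H820 count was 2 without H820 C36 replicate 3 or A549 C36 replicate 3, 3 without A549 MinE07 replicate 3, and 14 without A549 vehicle replicate 1.

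The response to C36 was compared between lines too, in a contrast chosen after the data were seen. Its adjusted p-values are thus a description. The change from vehicle to C36 was lower in A549 than in the mean of the other 3 lines for 12 genes (ANLN, AURKA, BIRC5, CCNA2, CDC25C, CEP55, DLGAP5, HMMR, NDC80, PLK1, PRC1 and UBE2C), where 2.66% of genes were (6.51% in either direction). The difference was -0.23 (SE 0.04, adjusted p = 0.00103) for PLK1 and -0.24 (SE 0.05, adjusted p = 0.00267) for UBE2C. The count was 5 without A549 C36 replicate 3 and 7 without A549 C36 replicate 1.

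The lines with L858R differed from each other for 6 of the genes. The fall was larger in H3255 than in H1975 for ANLN, CDC25B, KIF11, KIF4A, TOP2A and UBE2C, where 8.48% of all genes were lower (15.2% in either direction). The 6 are 14.3% of the set, near the share of all genes in either direction. The differences ran from -0.14 for KIF11 to -0.32 for CDC25B. By sign alone, the change was lower in H3255 for 34 of 42, where the median difference over all genes was 0.002. The genes called in both lines were 33, which is 80.5% of the 41 in H3255 and 97.1% of the 34 in H1975. With 41 of the 42 called in H3255, almost any 34 genes of the set would overlap to this extent. The overlap therefore does not measure agreement between the lines. Over the 42 genes Pearson's r of the 2 changes was 0.37 and Spearman's rho 0.28, a description over genes that are not independent. The C36 libraries of H3255 and H1975 are separate. The count of 6 was 4 to 7 with 1 library left out, and 4 without H3255 C36 replicate 1, H3255 MinE07 replicate 2, H1975 C36 replicate 2 or H1975 MinE07 replicate 3.

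**Figure D5:**
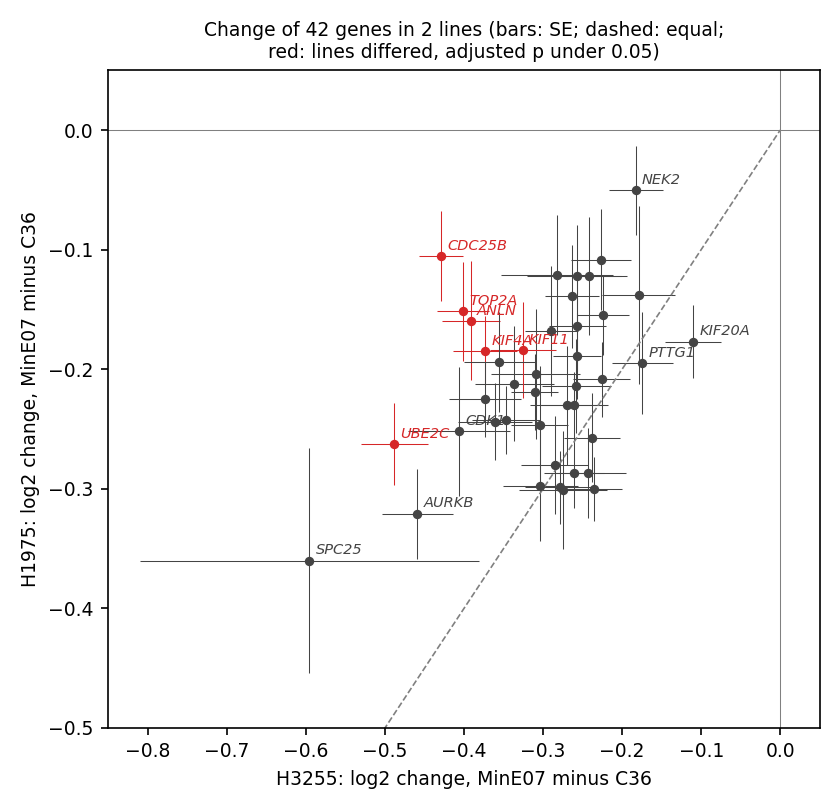
Log2 change between MinE07 and C36 of each of the 42 genes in H3255 (x axis) and H1975 (y axis), with SE as bars and the line of equal change dashed. Red marks the 6 genes whose change differed between the lines; most points lie left of the dashed line, 34 of 42.

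Starting levels were not the same in the lines. The median level of the set in vehicle ran from 18.2 FPKM (H3255) through 23.9 (H1975) and 25.3 (H820) to 26.6 (A549), and H3255 was lowest for 20 of 42 genes. The ratio of the highest line to the lowest was 1.94 in the median and ran from 1.12 for MAD2L1 to 3.46 for HMMR. PLK1 vehicle levels were 16.3 ± 0.912 FPKM (SD, n = 3) in H3255 and 50.1 ± 0.94 FPKM (SD, n = 3) in H1975. They were 27.8 ± 0.552 FPKM (SD, n = 3) in H820 and 49.96 ± 0.554 FPKM (SD, n = 3) in A549. H1975 and A549 overlapped for it, and the other steps lay apart.

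Other genes of the cycle, from lists made beside these 42, were read beside the set, against the 20% of all genes that fell and 16.6% that rose in H3255 and the 11.1% and 8.88% in H1975. Of 45 other mitosis genes, 37 fell in H3255 (median -0.29) and 33 in H1975 (median -0.20), and 0 passed by limma against C36 in H820 and A549. CENPI, a centromere protein, changed by -0.41 (SE 0.04, adjusted p = 3.42e-05) in H3255 and KIFC1, a kinesin, by -0.38 (SE 0.08, adjusted p = 0.0129) in H1975. Of 23 S phase genes, 18 fell in each of H3255 (median -0.15) and H1975 (median -0.21). RRM2, a subunit of ribonucleotide reductase, changed by -0.50 (SE 0.03, adjusted p = 1.22e-06) in H3255. Of 21 transcriptional regulators, 9 fell and 2 rose in H3255, and 7 fell and 2 rose in H1975. MYBL2, which encodes B-MYB, fell in both, by 0.28 (SE 0.04, adjusted p = 0.000197) and 0.24 (SE 0.04, adjusted p = 0.00161) on the log2 scale. E2F1 fell in H1975 (-0.29, SE 0.04, adjusted p = 0.00181) and was at -0.04 (SE 0.04, adjusted p = 0.485) in H3255. In H820 and A549 the changes of MYBL2 were -0.06 and 0.01 and those of E2F1 -0.04 and -0.02, with 0 calls.

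For the core of the APC/C, counted with its activator FZR1, of 15 genes 3 fell and 2 rose in H3255 and 2 fell in H1975, with a median of -0.02 in both. The genes called in either direction were 33.3% of this list in H3255 and 13.3% in H1975, under the 36.7% and 19.9% of all genes called there. CDC16 changed by 0.20 (SE 0.05, adjusted p = 0.0102) and CDC27 by -0.19 (SE 0.04, adjusted p = 0.00368) in H3255. Among G1 cyclins and CDK inhibitors, 8 of 11 genes tested fell and 2 rose in H3255, and 5 of 13 fell and 2 rose in H1975. CCND1, the cyclin of G1 entry, changed by -0.20 (SE 0.03, adjusted p = 0.000264) in H3255 and -0.55 (SE 0.03, adjusted p = 1.25e-05) in H1975, and by -0.33 and -0.03 in H820 and A549, not called there. CDKN1A, the inhibitor p21, fell in H3255 (-0.58, SE 0.05, adjusted p = 1.49e-05), from 38.2, 38.96 and 40.1 FPKM with C36 to 23.9, 26.2 and 28.1 with MinE07. In H1975 it rose (0.18, SE 0.04, adjusted p = 0.00819), from 17.4, 17.01 and 16.6 FPKM to 20.01, 18.7 and 19.4. Its changes in H820 and A549 were 0.03 and -0.14, not called. CDKN1B, the inhibitor p27, rose in both (0.12 and 0.15), calls lost without several single libraries, and was at 0.04 and 0.03 in H820 and A549. With C36 against vehicle in H820, 2 of 12 genes of this list tested fell and 1 rose, where 1.29% and 1.56% of all genes did. The changes there ran from -0.35 to 0.28. With vehicle as the reference, the MinE07 change of CDKN1A was lower in H820 than in A549, as given below. In A549, CDKN1A rose with C36 against vehicle (0.24, SE 0.04, adjusted p = 0.0122). A link to the 22 mitosis genes that fell there was not tested.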

How the data were processed

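Poly-A RNA was sequenced as paired reads of 100 bases from 36 libraries, 3 for each of 12 groups of line and treatment. The deposited values are FPKM per gene, made by the authors with HISAT2 and Cuffdiff on GRCh38.p12 (hg38), per the submitters' processing notes; annotation and tool versions were not given in the sources used here. Each file held 68271 entries; 1874 without a gene name and 31 sharing 15 repeated names were left out, and 66366 genes were kept. Read totals are not in these files, so no counting interval is given.

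Changes were fitted in each line's 9 libraries with limma 3.58.1 (R 4.3.3, statmod 1.5.0; trend and robust moderation) on log2(FPKM + 0.5), which understates the change of low genes, for genes with a mean of at least 1 FPKM. P-values were adjusted over all genes tested (Benjamini-Hochberg), and under 0.05 was called. Differences between lines came from 1 fit of 36 libraries and 12 groups. The fits were run on simulated data for H3255 and A549. The share of small changes, of the size seen here, that they recover is not given. Values in every library are given for MKI67, FOXM1, CDK1, CCNB1, PLK1, AURKA, AURKB, BUB1, UBE2C, TOP2A, CENPF and KIF20A, and, in its line, for the 2 lowest and 2 highest changes against C36. The 42 genes and the lists were chosen with earlier results of these data known. Replicate numbers were checked for pairing: correlations of same-numbered libraries' deviations ran from -0.163 to 0.246, so no pairing was used. Alternatives tried were pseudocounts of 0.1 and 1, no filter, a mean of at least 5 FPKM, rescaling by medians of ratios, a replicate block, no trend and robust moderation, omission of further copies of a name, each library left out, a fit of all 36 libraries and, chosen after seeing the data, vehicle as the reference between lines and the line difference in the C36 response.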

Additional observations from a re-analysis of the deposited data

Results flagged for a closer look

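Differences between lines passed their own test for many of the mitosis and G2-M genes. The change with MinE07 against C36 was lower in H3255 than in A549 for 41 of 42 genes (against 14% of all genes), in H1975 than in A549 for 36 (against 6.88% of all genes) and in H820 than in A549 for 6 (against 0.213% of all genes). The mean of H3255 and H1975 was lower than the mean of H820 and A549 for 41 (against 14.3% of all genes). Between the lines with L858R, it was lower in H3255 than in H1975 for 6, which is 14.3% of the set, where 8.48% of all genes were lower and 15.2% differed in either direction. The change with C36 against vehicle was lower in A549 than in the mean of the other 3 lines for 12 (against 2.66% of all genes). That last contrast was chosen after the data were seen. The comparisons against A549 share its C36 libraries.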

How the results depend on the processing

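Counts of the 42 genes called moved as follows. Without a filter on low values they were 0 for C36 against vehicle in H3255, 2 for MinE07 against vehicle in H820, 0 for C36 against vehicle in H820 and 7 for C36 against vehicle in A549. With a mean of at least 5 FPKM, C36 against vehicle in H820 gave 4 and MinE07 against vehicle in A549 gave 1. The latter was also 1 with a pseudocount of 0.1, with rescaling by medians of ratios and without further copies of a name. Without trend and robust moderation, C36 against vehicle gave 0 in H3255 and 1 in H820, and MinE07 against vehicle in H820 gave 7. In a fit of all 36 libraries, C36 against vehicle gave 1 in H1975, 4 in H820 and 35 in A549, and in A549 MinE07 gave 6 against vehicle and 9, all higher, against C36. With the replicate block, counts were 0 for C36 against vehicle in H3255, 8 for MinE07 and 1 for C36 against vehicle in H820, 9 for C36 against vehicle in A549 and 3 for H820 against A549. With vehicle as reference, H820 differed from A549 for 1 gene. Of the differences between lines called with C36 or with vehicle as reference, for genes named here, 6 changed sign: CDC25C 0.013 (H1975 minus A549), PLK1 -0.19 (H3255 minus H1975), ANLN 0.046 and CDKN1A -0.41 (H820 minus A549), E2F1 0.20 (H3255 minus A549) and 0.0041 (mean of H3255 and H1975 minus mean of H820 and A549). Sign changes of differences called with neither reference were not counted. With 1 library left out, C36 against vehicle gave 4 to 25 in A549, 0 to 3 in H820, 0 to 2 in H3255 and 0 to 1 in H1975. MinE07 against vehicle gave 3 to 10 in H820 and 0 to 2 in A549. H820 against A549 gave 2 to 14, and the C36 difference of A549 from the other lines 5 to 15. The causes were not tested. The counts for MinE07 in H3255 and H1975 stayed within 1.5 times their values under every alternative run.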
